A study of Mus musculus with 12 samples.

Results

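Of the 55092 features in the expression table of mouse abdominal aorta, 9 genes of the B lineage and its immunoglobulins were followed here: Ighm, Ighd, Igkc, Igkj5, Jchain, Cd79a, Cd79b, Cd22 and Fcrla. They were taken by symbol and were selected on their FPKM in these same libraries, chosen for the difference between the Ang II groups, so that difference is given as a description without a test. RNA-Seq libraries came from 12 male mice in 4 groups of 3, with 1 library per mouse. CCN2fl/fl mice, which carry floxed Ccn2 and no Cre, received saline (CFS) or angiotensin II (CFA), and CCN2SMCΔ mice received saline (CSS) or angiotensin II (CSA). The CCN2SMCΔ mice are CCN2fl/fl mice with the Myh11-Cre-ERT2 transgene, in which the smooth muscle myosin promoter drives a tamoxifen-activated Cre, so the deletion is directed to smooth muscle cells (SMC) and not to B cells. All 4 groups were given 5 doses of tamoxifen at 8 weeks of age, then a washout of 2 weeks, and were infused for 7 days by osmotic pump, the Ang II at 500 ng/kg/min. Each value is from whole tissue of the abdominal aorta, in which fewer cells of a type and less RNA per cell cannot be told apart.

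B cells recognise antigen with a membrane immunoglobulin that is held together with the signaling chains CD79A and CD79B. An immunoglobulin has heavy and light chains, and each chain is encoded by a variable region, joined from V, J and, in the heavy chain, D segments, spliced to a constant gene. A naive B cell uses the constant genes Ighm and Ighd, while class-switched cells use Ighg, Igha or Ighe. Plasma cells, the antibody-secreting end of the lineage, make very large amounts of immunoglobulin transcript and of the J chain that links IgM and IgA into polymers, and carry little of the surface receptor.

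Values are FPKM, the fragments of a gene scaled to the length of its exons and to the fragments of the library, as the authors deposited them. The exon lengths turned 98.0% to 98.5% of low values into whole fragments, and the recovered depth ran from 14558580 fragments (CSA mouse 03) to 23107807 (CFA mouse 71). The targeted gene, Ccn2, measured 480 to 1108 FPKM in CFS, 436 to 639.9 in CSS, 564 to 1105 in CFA and 255 to 399 in CSA, so it overlapped between genotypes under saline and not under Ang II. CSA mouse 03 stood apart from its group. Its root mean square distance from CSA mice 01 and 02 was 1.20 to 1.21 on log2(FPKM + 0.1), against 0.505 between those mice, and the other pairs of replicates lay 0.586 to 0.743 apart. It listed 743 of the 14676 tested features at 0, where the other libraries listed 109 to 349, and 56 of those features reached 1 FPKM in every other library. A value of 0 in CSA mouse 03 is therefore given as listed, and not as absence.

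The sequence at the centre of the kappa results is that of the joining segments, which are short and resemble one another. The 5 kappa joining segments, read from the GENCODE M21 joining-segment transcripts on GRCm38, lie in a row on the plus strand of chromosome 6, upstream of Igkc. They are shown 5′ to 3′ because a fragment has to be placed on 1 of them by these few bases, and capitals mark the codons of the phenylalanine-glycine motif shared by joining regions. The gene rows of Igkj2 and Igkj5 end slightly beyond these transcripts.
Igkj1, chr6:70722562-70722599: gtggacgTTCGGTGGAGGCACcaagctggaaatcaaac
Igkj2, chr6:70722916-70722954: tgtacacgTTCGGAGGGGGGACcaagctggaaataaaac
Igkj3, chr6:70723223-70723260: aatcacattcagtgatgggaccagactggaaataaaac
Igkj4, chr6:70723548-70723585: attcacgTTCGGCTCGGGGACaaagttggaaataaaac
Igkj5, chr6:70723886-70723923: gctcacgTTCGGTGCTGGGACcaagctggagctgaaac
Of these 5, Igkj3 alone did not match the motif searched. Igkj5 matched Igkj2 at 30 of 38 bases, Igkj1 at 29, and Igkj3 and Igkj4 at 28 each, aligned at the 3′ end without gaps.

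Among the 9 genes, 7 had all 3 CSA libraries above all 3 CFA libraries (Ighm, Igkc, Igkj5, Jchain, Cd79b, Cd22 and Fcrla), and 0 had them below. Of all features tested, 23.4% had CSA above CFA without overlap and 25.1% had it below. Against CSS the same 7 genes were above without overlap, where the background was 26.3% above and 29.1% below. Ighd and Cd79a overlapped in both comparisons. All 9 genes passed the filter of 1 FPKM in at least 3 libraries, and 5 of them (Igkj5, Cd79a, Cd79b, Cd22 and Fcrla) needed CSA libraries to do so, so a difference was partly built into their passing. The members are also not independent of each other, since Ighm and Ighd share 1 primary transcript and Igkj5 and Igkc are parts of 1 kappa transcript.

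**Figure D1:**
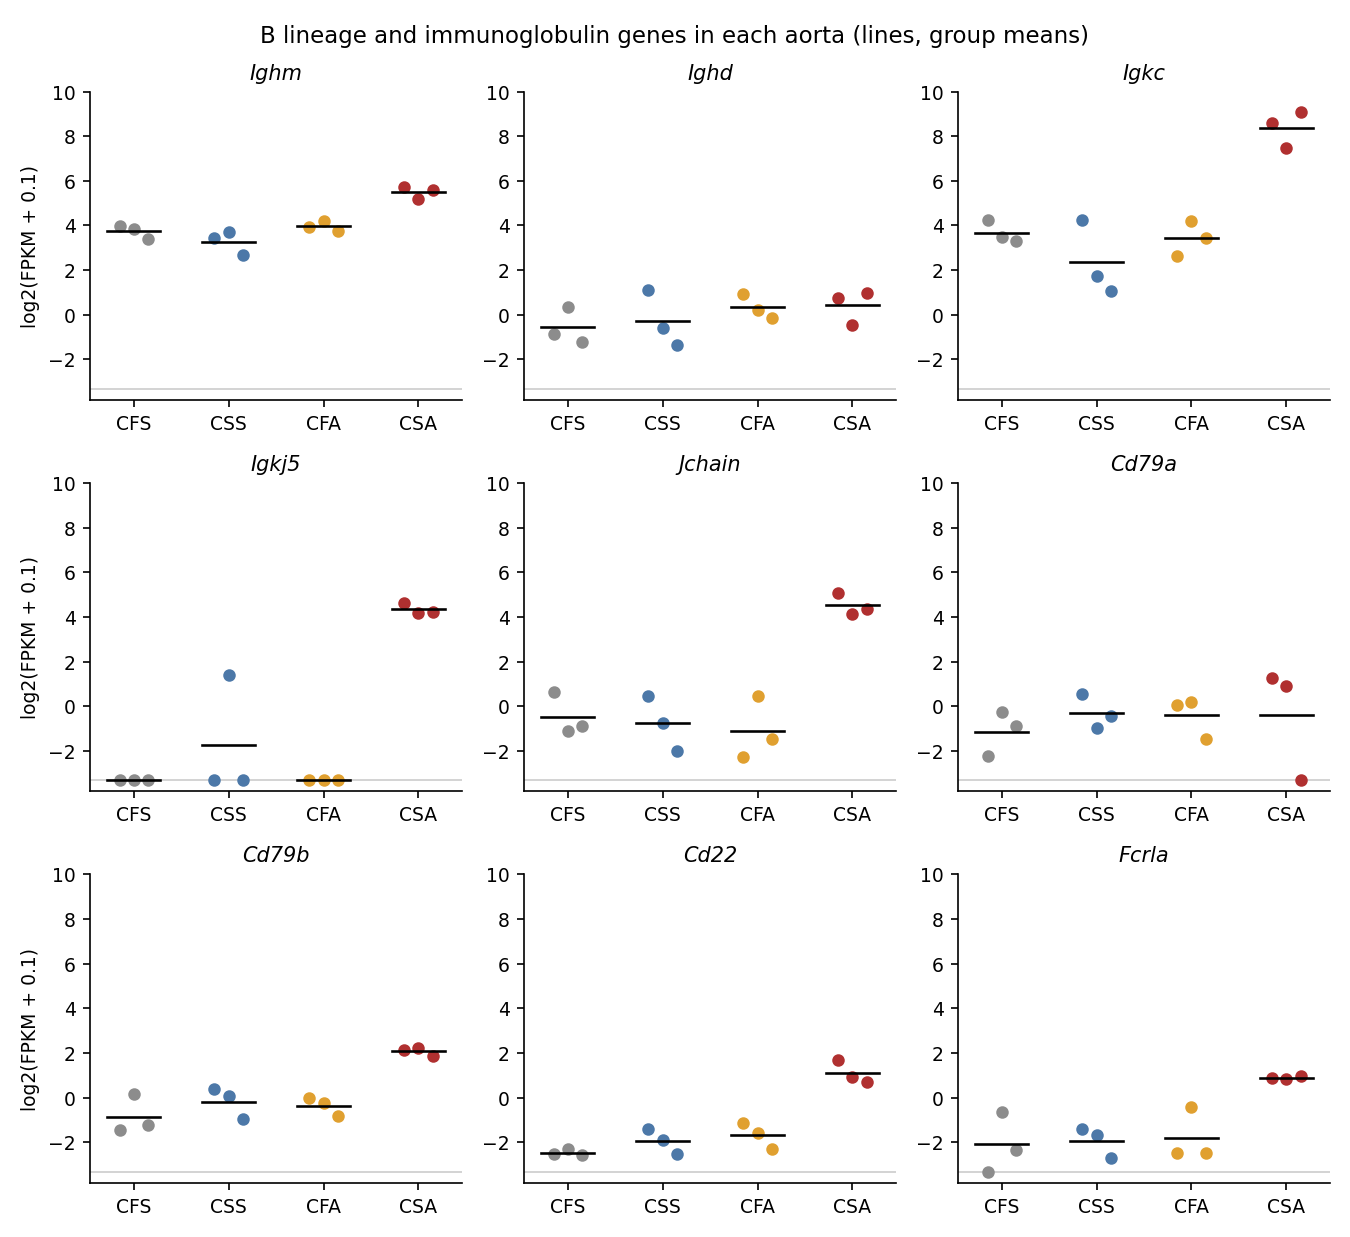
Log2(FPKM + 0.1) of each gene (vertical axis) in the 4 groups, with 1 point per mouse and a line at the group mean of the log values; the grey line marks a listed value of 0. The red CSA points lie above the other groups in 7 panels, while Ighd and Cd79a overlap, and 1 CSA point of Cd79a lies at 0.

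The heavy chain gene of IgM, Ighm (ENSMUSG00000076617, chr12:113418558-113422730, minus strand), was the member with the highest level in most libraries outside CSA. It measured 15.6, 14.5 and 10.4 FPKM in CFS, 10.8, 12.8 and 6.31 in CSS, 15.2, 18.4 and 13.4 in CFA, and 52.1, 36.0 and 47.5 in CSA. The lowest CSA mouse was above every other mouse, and the other 3 groups overlapped. CSA averaged 45.2 ± 8.29 FPKM and CFA 15.7 ± 2.51 (mean ± SD of 3 mice), a ratio of 2.88 and a difference of 1.52 on the log2 scale (standard error 0.26). Against CSS the difference was 2.21 (standard error 0.26). By mean the order was CSS, CFS, CFA and CSA.

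Ighd (ENSMUSG00000104213, chr12:113406604-113416324, minus strand), is the constant gene of IgD, which naive B cells express together with IgM. It measured 0.456, 1.18 and 0.336 FPKM in CFS, 2.04, 0.568 and 0.290 in CSS, 1.81, 1.07 and 0.794 in CFA, and 1.61, 0.620 and 1.89 in CSA. The groups overlapped, and the highest single library was a CSS mouse. The difference between CSA and CFA was 0.10 on the log2 scale (standard error 0.66) and that between CSA and CSS was 0.71 (standard error 0.66). A change of 2-fold in either direction lies within 2 standard errors of 0 here. The ratio of Ighm to Ighd FPKM was 25.1 to 58.0 in CSA and 5.27 to 34.3 in the other 9 libraries, with overlap.

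The kappa light chain constant gene, Igkc (ENSMUSG00000076609, chr6:70726435-70726966, plus strand), had the highest level of the 9 genes in CSA. It measured 18.6, 11.1 and 9.92 FPKM in CFS, 18.9, 3.25 and 1.99 in CSS, 6.04, 18.4 and 10.7 in CFA, and 385, 177 and 536 in CSA. Every CSA mouse lay above the highest of the other 9. CSA averaged 366 ± 180.5 FPKM and CFA 11.7 ± 6.25 (mean ± SD of 3 mice), a ratio of 31.2 and a difference of 4.95 on the log2 scale (standard error 0.74). Against CSS the difference was 6.02 (standard error 0.74), and it was 6.97 without CSS mouse 54, the highest of that group. Per length, Igkc stood at 4.91 to 11.3 times Ighm in CSA and at 0.253 to 1.76 times Ighm in the other 9 libraries, without overlap.

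Igkj5 (ENSMUSG00000076608, chr6:70723886-70723927, plus strand) is the last joining segment before Igkc. It was listed at 0 in all CFS and CFA libraries, at 0, 2.57 and 0 FPKM in CSS, and at 24.6, 18.0 and 18.6 in CSA. These values rest on 21, 16 and 12 fragments in CSA and 2 in CSS mouse 55, on an exon of 42 bases. Set against 3 fragments per CFA library, taken here as an approximate upper limit for a count of 0, the CSA mean of 20.4 FPKM was 6.11-fold higher. That limit covers counting error only. The other kappa joining segments were also counted mainly in CSA. Igkj4 measured 42.8, 12.4 and 0 FPKM there, Igkj3 18.1, 2.48 and 13.7, Igkj2 14.9, 9.87 and 0, and Igkj1 7.78, 9.92 and 0. Igkj5 and Igkj3 were thus counted in all 3 CSA mice, Igkj3 with 14, 2 and 8 fragments, and the 3 segments listed at 0 in CSA mouse 03 were counted in both other CSA mice.

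Jchain (ENSMUSG00000067149, chr5:88519809-88527891, minus strand), which encodes the joining chain of polymeric IgM and IgA, had the largest ratio of CSA to CFA among the members above 0 in every group, while Igkc had the larger ratio to CSS (45.5, against 37.3 for Jchain). It measured 1.46, 0.361 and 0.438 FPKM in CFS, 1.28, 0.493 and 0.146 in CSS, 0.109, 1.27 and 0.262 in CFA, and 33.7, 17.5 and 20.5 in CSA. The CSA mice did not overlap with any other mouse, and the other groups covered the same range. CSA averaged 23.9 ± 8.63 FPKM and CFA 0.548 ± 0.632 (mean ± SD of 3 mice), a ratio of 43.6 and a difference of 5.61 on the log2 scale (standard error 0.78). The CFA mean rested on mouse 72, and without that mouse the difference was 6.39. Against CSS the difference was 5.30 (standard error 0.78).

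Cd79a and Cd79b encode the paired signaling chains of the B cell receptor, and their values differed. Cd79b (ENSMUSG00000040592, chr11:106311341-106314762, minus strand) measured 0.265, 1.01 and 0.324 FPKM in CFS, 1.20, 0.943 and 0.418 in CSS, 0.898, 0.757 and 0.462 in CFA, and 4.37, 4.55 and 3.56 in CSA. All CSA mice were above all others, with averages of 4.16 ± 0.528 FPKM in CSA and 0.706 ± 0.223 in CFA (mean ± SD of 3 mice). The difference was 2.43 on the log2 scale (standard error 0.46), and 2.25 against CSS.

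Cd79a (ENSMUSG00000003379, chr7:24897381-24902197, plus strand) measured 0.111, 0.734 and 0.438 FPKM in CFS, 1.37, 0.407 and 0.631 in CSS, 0.945, 1.03 and 0.259 in CFA, and 2.33, 1.78 and 0 in CSA. CSA mice 01 and 02 were the highest of all 12, with 69 and 55 fragments, and CSA mouse 03 was listed at 0. The difference between CSA and CFA was 0.03 on the log2 scale (standard error 1.09) with mouse 03 and 1.51 (standard error 0.71) without it. Against CSS it was -0.08 with mouse 03 and 1.39 without it. The 5 genes whose values across the 12 libraries were most like those of Cd79a had their lowest CSA value in mouse 03. Their choice by likeness to Cd79a, with its 0 in that mouse, largely built this in, so it is a description only. Cdkn2d, for example, measured 11.3, 14.5 and 1.37 FPKM in CSA, and Gm38158 measured 25.4, 24.9 and 0.770. The others were 0610039K10Rik, Gm25135 and Gm4705, at root mean square differences of 0.618 to 0.676 for the 5 genes, among 14667 compared.

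The inhibitory receptor of B cells, Cd22 (ENSMUSG00000030577, chr7:30865402-30880342, minus strand), shares 9.50% of its exonic bases with the annotated gene Gm29439. It measured 0.0751, 0.106 and 0.0690 FPKM in CFS, 0.277, 0.171 and 0.0729 in CSS, 0.355, 0.234 and 0.103 in CFA, and 3.11, 1.80 and 1.51 in CSA. The CSA libraries held 318, 192 and 117 fragments, against 6 to 39 in each other library, and no CSA mouse overlapped with them. CSA averaged 2.14 ± 0.850 FPKM and CFA 0.231 ± 0.126 (mean ± SD of 3 mice), a difference of 2.77 on the log2 scale (standard error 0.49), and of 3.04 against CSS.

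Fcrla (ENSMUSG00000038421, chr1:170917576-170927583, minus strand), an Fc receptor-like protein kept inside B cells, had the narrowest spread of the members in CSA. It measured 0, 0.551 and 0.0997 FPKM in CFS, 0.278, 0.216 and 0.0527 in CSS, 0.0789, 0.648 and 0.0811 in CFA, and 1.72, 1.67 and 1.87 in CSA. The CSA mice were above every other mouse, and within CFS and CFA 1 mouse each was well above its group. CSA averaged 1.76 ± 0.102 FPKM against 0.269 ± 0.328 in CFA (mean ± SD of 3 mice), a difference of 2.68 on the log2 scale (standard error 0.76) and of 2.82 against CSS.

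**Figure D2:**
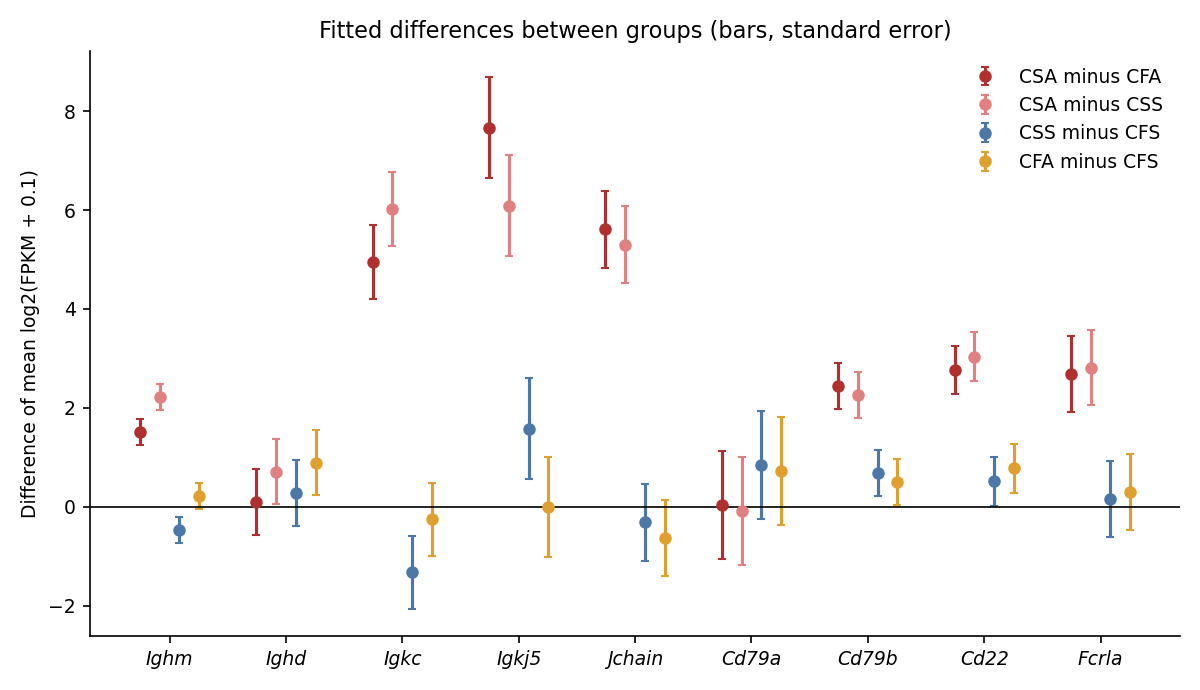
Fitted difference of mean log2(FPKM + 0.1) for each gene (vertical axis) in 4 comparisons, with bars of 1 standard error. Both comparisons with CSA lie above 1.5 for 7 genes and near 0 for Cd79a, and the comparisons without CSA lie between -1.33 and 1.58; the values of Igkj5 depend on the pseudocount, as it is listed at 0 in most libraries.

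The comparisons without CSA were not themselves used to choose these genes and were tested. The CFA libraries did enter the choice, which favors genes that are low in CFA. The 5 genes that needed CSA to pass the filter were under 1 FPKM in most other libraries. Little is therefore read from their lack of a call. A call required both an adjusted p below 0.05 by limma and a log2 difference beyond 1.5 in size. Under saline, in CSS and CFS, limma called 0 of the 9 genes, and 0 had an unadjusted p under 0.05. Of all features tested, 0.0136% were called and 6.3% had such an unadjusted p. The lowest adjusted p was 0.904 (limma with Benjamini-Hochberg adjustment), shared by Ighm, at -0.47 on the log2 scale (standard error 0.26), and Igkc, at -1.33 (standard error 0.74). All 9 genes overlapped between CFS and CSS, where 20.4% of all features did not. Igkc in CSS rested on mouse 54, whose 18.9 FPKM was above its other values of 3.25 and 1.99.

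Ang II in the CCN2fl/fl mice, CFA against CFS, also left 0 of the 9 genes called by limma and 0 at an unadjusted p under 0.05, with backgrounds of 0.0273% and 9.42%. The lowest adjusted p was 0.703, for Cd22 at 0.78 on the log2 scale (standard error 0.49, limma). Ighm differed by 0.22 (standard error 0.26), Igkc by -0.25 (standard error 0.74) and Jchain by -0.63 (standard error 0.78). Each of the 9 overlapped between the groups, where 20.2% of all features did not. Igkj5, listed at 0 in all CFS and CFA libraries, could not come out otherwise in these counts, so nothing is read from it here. For Ighd, Igkc, Jchain, Cd79a and Fcrla, with standard errors of 0.66 to 1.09, a 2-fold change lies within 2 standard errors of 0. Under the fold limit no 2-fold change could be called for any of the 9.

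The other immunoglobulin constant genes, which are not among the 9, were measured next. Igha, the constant gene of IgA, measured 0.304, 0.481 and 0 FPKM in CFS, 4.17, 0.121 and 0.0689 in CSS, 0.0860, 1.73 and 0.831 in CFA, and 133, 47.6 and 47.0 in CSA. It rose by 6.61 on the log2 scale between CFA and CSA (standard error 1.23, limma adjusted p = 0.00141). The IgG2 genes Ighg2c and Ighg2b also rose, by 5.35 and 3.77 (adjusted p = 1.48e-04 and 6.27e-04, limma), to 28.1, 3.84 and 12.5 FPKM and to 6.38, 1.76 and 2.02 in CSA. The lambda light chain genes Iglc1, Iglc2 and Iglc3 rose by 4.70, 2.88 and 3.81 (adjusted p = 0.00168, 0.0117 and 0.00255, limma). All 6 constant genes tested needed CSA libraries to pass the filter, and of all features that did so 58.2% were called higher in CSA, so that their rise was largely built into the filter and their number is a description. In Iglc3, 20.6% of exonic bases also belong to 2010309G21Rik.

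Ighg1, Ighg3, Ighe and Iglc4 stayed too low to test, and Iglc4 was listed at 0 in all 12 libraries. Ighg1 was counted with 38, 50 and 16 fragments in CSA and with 2 in CFA mouse 74, and with 0 in the other 8 libraries. Ighg3 had 8, 18 and 2 fragments in CSA and 12, 6 and 8 in CFA, so it overlapped. Ighe had 1, 3 and 0 in CSA and 0 elsewhere, which is within the 3 fragments taken as the upper limit for a count of 0.

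The share of each class among the heavy-chain constant genes, taken over their FPKM, is given as a description, since Ighm is one of the 9 genes. Ighm made up 93.3%, 85.4% and 95.3% in CFS, 59.5%, 91.7% and 87.6% in CSS, 86.5%, 84.4% and 86.8% in CFA, and 23.5%, 39.5% and 42.6% in CSA. The CSA shares were the lowest of all 12. Igha made up 59.8%, 52.2% and 42.3% in CSA, 0.488% to 7.95% in CFA and at most 2.84% in CFS, and in CSS it reached 23.1% in mouse 54. The 4 Ighg genes together held 7.51% to 15.9% in CSA, 2.70% to 2.72% in CFA, 3.33% to 7.44% in CSS and 1.62% to 4.75% in CFS, while Ighd held 0.681% to 1.70% in CSA and 4.90% to 10.3% in CFA. The lower share of Ighm in CSA came with a sum over the heavy genes of 221.6, 91.1 and 111 FPKM there, against 15.5 to 21.8 in CFA. Of the light chain FPKM, kappa held 90.9%, 92.5% and 96.7% in CSA and 83.0% to 94.5% in CFA, with overlap, and its lowest share was 47.6%, in CSS mouse 55.

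**Figure D3:**
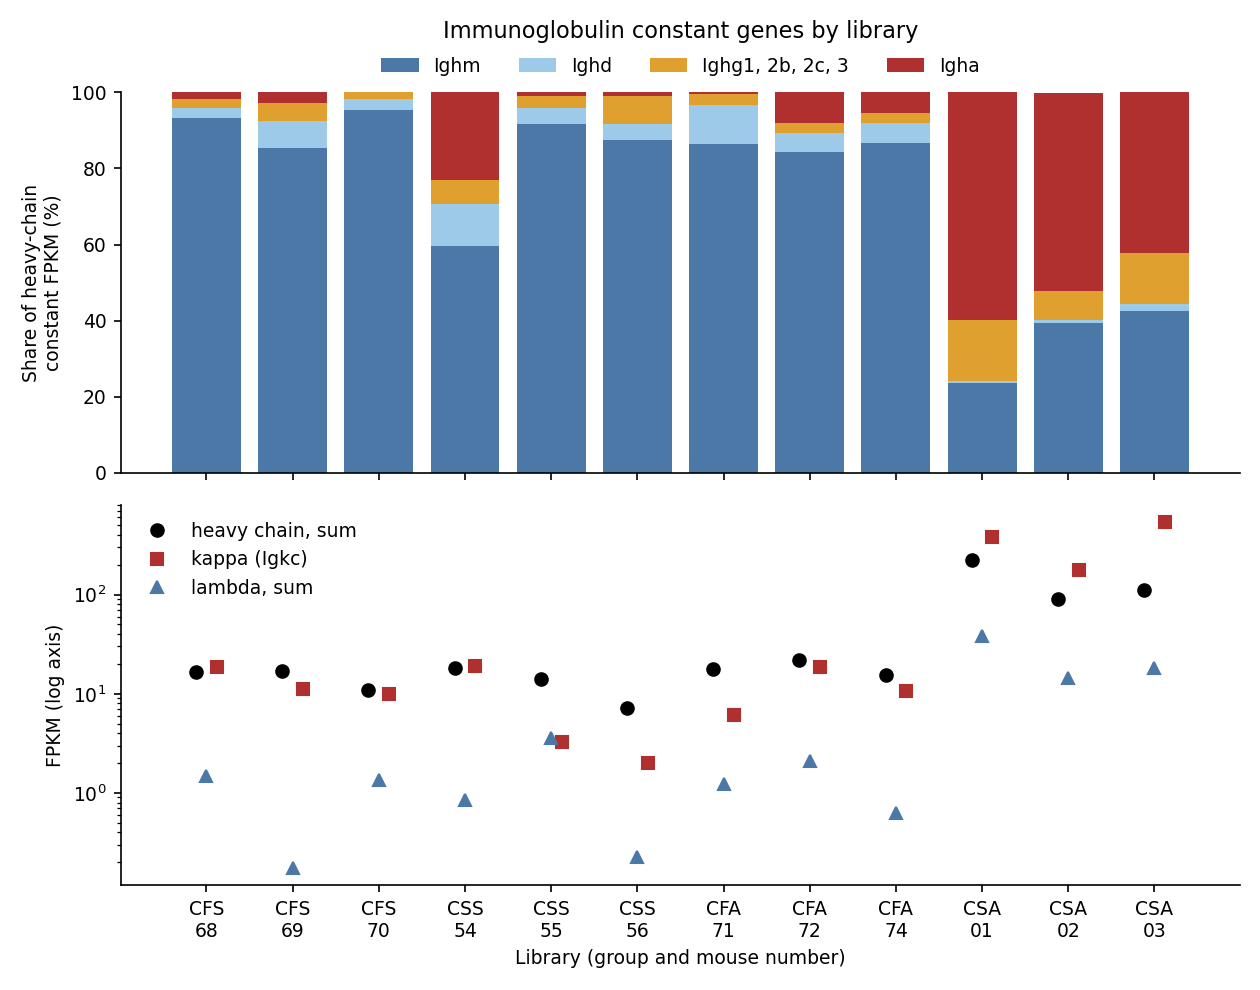
Upper panel, the share of each heavy-chain class in the summed FPKM of heavy-chain constant genes (%), 1 bar per library; lower panel, FPKM of the heavy-chain sum, kappa and the lambda sum on a log axis. Igha takes 42.3% to 59.8% of the bars of CSA, and the next highest Igha shares are 23.1% in CSS mouse 54 and 7.95% in CFA mouse 72.

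The variable segments were counted as germline segments, each of which can serve many rearrangements. Of 348 V segments in the table, 159, 131 and 71 were above 0 in the CSA mice 01, 02 and 03, and 9 to 43 in the other 9 libraries. With FPKM of at least 1 required, the median of the CSA mice was 52 in place of 131. The V segments held 4015, 1505 and 1150 fragments in CSA, or 214.7, 78.7 and 79.0 per 1000000 fragments of the library, against 14 to 178 fragments (0.614 to 8.04 per 1000000) elsewhere. In all, 176 V segments were above 0 in at least 1 CSA mouse and 57 in all 3, and 77 of the 176 (43.8%) were at 0 in the other 9 libraries. More fragments make more segments visible, and this was not corrected for.

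Iglv1, the most counted V segment in each CSA mouse, held 10.9%, 10.8% and 8.96% of V fragments, and the 10 most counted held 38.7%, 42.5% and 45.1%. In the other 9 libraries the most counted segment held 8.20% (CSS mouse 54) to 47.5% (Iglv2 in CSS mouse 55) of far fewer V fragments, which overlapped with CSA. Their 10 most counted segments held 59.0% to 100%, above each CSA mouse, from 14 to 178 fragments and 9 to 43 segments. The 5 V and J segments with the highest mean over all libraries were Ighj4, Iglv1, Ighj3, Igkj5 and Igkj4. Ighj4 measured 49.3, 18.3 and 3.63 FPKM in CSA and up to 9.90 in the other libraries, so CSA mouse 03 overlapped with them. CSA mouse 03 had the highest Igkc, at 536 FPKM, with the fewest V segments of its group.

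**Figure D4:**
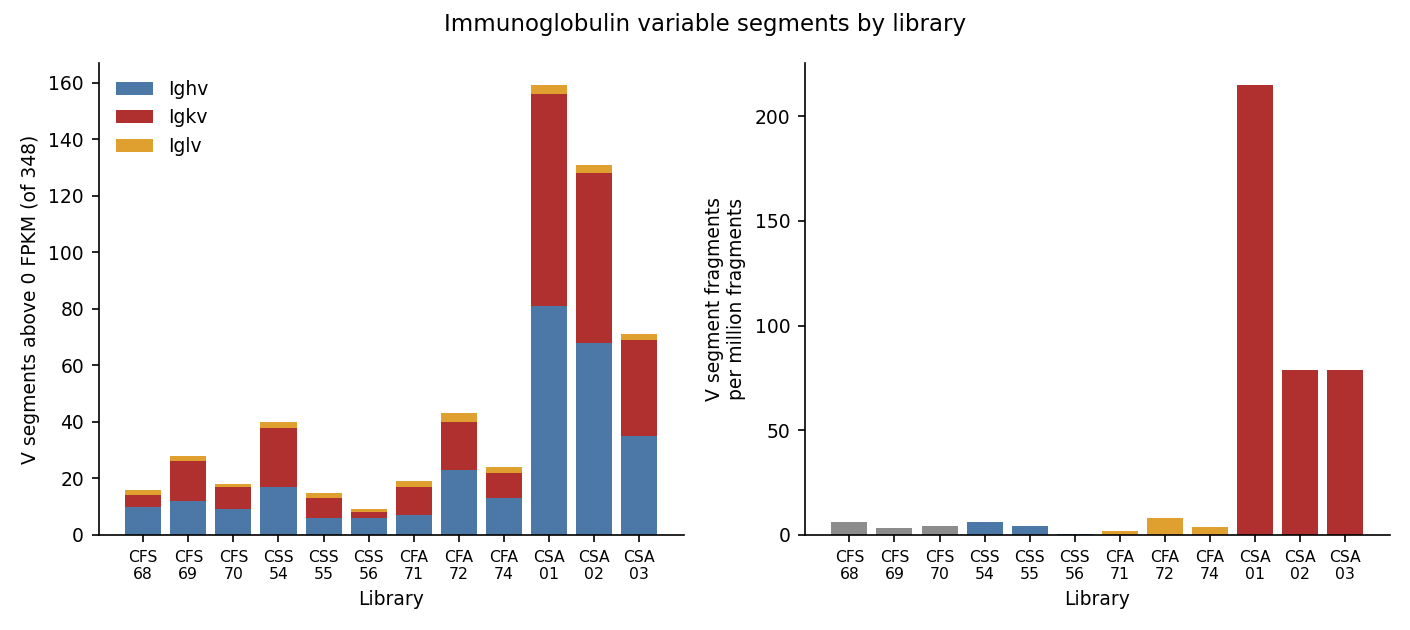
Left, number of Ighv, Igkv and Iglv segments above 0 FPKM in each library, stacked; right, fragments on V segments per 1000000 fragments of the library. The CSA bars, 71 to 159 segments, exceed all others, and CSA mouse 01 has the most on both scales.

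Genes whose values across the 12 libraries were most like those of Ighm, centred on each gene's mean, were Zfp217, Dnase2a, Enc1, Prkcb and Lgi2, at root mean square differences of 0.205 to 0.253 in log2(FPKM + 0.1). Prkcb encodes a protein kinase C that acts in B cell receptor signaling. None of the other 8 members was as near, and the nearest of them, Cd79b, lay at 0.680. For Jchain the nearest 5 were Ighv3-6, Oas1g, Irf7, Ifi44 and Iglc1, at 0.529 to 0.727, of which Ighv3-6 and Iglc1 are immunoglobulin genes and Oas1g, Irf7 and Ifi44 are interferon-induced genes. Igkc lay at 0.732 from Jchain. These are likenesses over libraries that share the contrast between CSA and the rest, and carry no test.

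Promoter sequence was in the reference table for 4 of the 9 genes (Jchain, Cd79a, Cd22 and Fcrla; RefSeq, GRCm38.p6). The 250 bases before the start are printed for Jchain, which had the largest ratio of the 4, and Fcrla, which had the narrowest spread in CSA. Capitals mark the E-box CAGGTG, the site of E proteins such as TCF3.
Jchain, chr5:88527898-88528147, minus strand: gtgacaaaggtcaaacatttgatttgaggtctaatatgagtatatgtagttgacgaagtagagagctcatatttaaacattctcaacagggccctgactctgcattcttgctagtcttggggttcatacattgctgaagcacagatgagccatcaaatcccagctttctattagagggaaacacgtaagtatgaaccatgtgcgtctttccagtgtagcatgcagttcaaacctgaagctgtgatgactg
Fcrla, chr1:170927584-170927833, minus strand: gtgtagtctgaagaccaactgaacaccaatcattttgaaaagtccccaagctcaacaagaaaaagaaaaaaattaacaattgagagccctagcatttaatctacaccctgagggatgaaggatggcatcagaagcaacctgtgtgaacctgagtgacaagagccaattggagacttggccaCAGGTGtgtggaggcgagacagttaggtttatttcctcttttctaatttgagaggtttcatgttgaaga
On both strands, the E-box was found at -69 in Fcrla, -154 in Cd79a and -245 in Cd22, counted from the RefSeq start, and in 17.2% of all 32851 promoters. The octamer ATGCAAAT, bound by OCT2, which Pou2f2 encodes, was in none of the 4 and in 1.60% of all. The Ets letters AGGAAGTG were in Cd79a at -55 (3.14% of all), and the Ebf letters CCCNNGGGA were in Cd22 (5.60% of all). Jchain held none of these 4 in its window. The RefSeq starts of Cd79a and Cd22 differ from the GENCODE gene ends given above, so the Cd22 window, chr7:30879029-30879278, lies inside the GENCODE gene and that of Cd79a, chr7:24897247-24897496, reaches into it.

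B cell genes outside the 9 were followed in 9 lists of 137 genes, of which 88 were tested in CSA against CFA. By limma 49 rose and 1 fell (Akap12), against 8.95% of all features called higher and 8.27% called lower. Of the 88, 27 needed CSA libraries to pass the filter (7 surface, 6 constant, 4 signaling, 3 plasma cell and 3 attractant genes, and 1 in each other list), and among the other 61 genes 22 rose (36.1%), where 4.54% of all features that passed outside CSA were called higher. Among these 22 are Vav1, Pik3ap1, Ptprc, Spi1, Irf8 and Ikzf1, which myeloid or T cells also use, and Fcgr1, also a listed macrophage gene. Of 14 macrophage genes 13 rose, so a share above that of all features is not particular to the B lineage lists. The same 88 genes gave 0 calls by limma in CSS against CFS and in CFA against CFS. Of all features, 0.0136% and 0.0273% were called in these comparisons.

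Of 20 B cell surface genes, 9 were tested and 8 rose, but 7 of the 9 passed the filter through CSA, where a rise was largely built in. Genes that define B cells were low. Ms4a1, which encodes CD20, measured 0.0381 to 0.223 FPKM in CFA and 0.221 to 0.295 in CSA. Pax5, the factor that fixes B cell identity, measured 0.0426 to 0.0778 in CFA and 0.0639 to 0.189 in CSA, and Cr2, the complement receptor CD21, 0.0465 to 0.108 and 0.0729 to 0.290. None of these 3 was tested, and each overlapped between CFA and CSA. The surface genes with the largest differences were Cd72, Cd180, Ly6d and Tnfrsf13b, and all 4 are among the 7 that passed through CSA. Cd72 averaged 0.931 ± 0.764 FPKM in CFA and 69.1 ± 12.9 in CSA (mean ± SD of 3 mice), a difference of 6.30 on the log2 scale (standard error 0.47).

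Of 26 genes of B cell receptor signaling, 24 were tested and 14 rose, with a median of 2.03. Vav1, Pik3ap1 and Ptprc rose by 3.81, 3.79 and 3.74, and these genes, apart from acting below the B cell receptor, are also used by myeloid or T cells. Of 16 B cell transcription factors, 10 were tested and 4 rose (Pou2f2, Ikzf1, Spi1 and Irf8, by 3.44, 3.31, 3.28 and 2.99), with a median of 0.29. Pou2f2 passed the filter through CSA, and Spi1, Irf8 and Ikzf1 are also used by myeloid cells. Ebf1, a factor that specifies the B lineage, named after its values were seen, was lower in CSA than in CFA without overlap, by -1.13 (standard error 0.25, limma adjusted p = 0.00437), under the fold limit. Of 14 genes of B cell precursors, 6 were tested. Il7r, which passed the filter through CSA, and Bst1 rose by 4.74 and 3.39, Akap12 fell by 2.03, and Erg was not called, at -0.44. Rag1, which cuts the segments for joining, was listed at 0 in all CSA and CSS libraries and had 8 fragments in CFS and 4 in CFA. Dntt, which adds bases at the joints and was named after its values were seen, measured 0.255 to 0.613 FPKM in CSA (61 fragments), at most 0.0431 in CFA, 0 in CSS and up to 0.251 in CFS (14 fragments), and was not tested.

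Of 16 plasma cell genes, 12 were tested and 4 rose, with a median of 0.75 against -0.04 over all features. Of these 4, Slamf7, Mzb1 and Prdm1 were under 1 FPKM in each library outside CSA and passed the filter through CSA, so that a rise was largely built in. Slamf7 rose by 4.09 (standard error 0.46, adjusted p = 4.41e-05, limma). Mzb1, a chaperone of immunoglobulin assembly, measured 0.152, 0.417 and 0.261 FPKM in CFA and 8.33, 5.00 and 3.24 in CSA, and rose by 3.86 (standard error 0.52, adjusted p = 1.68e-04, limma). Prdm1, which drives the plasma cell program, averaged 2.43 ± 0.226 FPKM in CSA and 0.154 ± 0.146 in CFA (mean ± SD of 3 mice) and rose by 3.46 (adjusted p = 2.48e-04, limma). Fkbp11 rose by 1.57, close to the fold limit. Xbp1, the secretory factor of plasma cells and of other cells, differed by 0.71 (adjusted p = 0.00168, limma), under the fold limit, and Sdc1, the surface marker CD138, by 0.34 (standard error 0.29, adjusted p = 0.375, limma), with overlap. Tnfrsf17, the plasma cell receptor BCMA, also named after its values were seen, was listed at 0, 0.694 and 0 FPKM in CSA (12 fragments) and at 0.225 to 0.579 in CFA (24 fragments), and was not tested.

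Of 12 germinal center genes, 5 were tested and 2 rose (Il21r and Cd83, by 3.92 and 2.10), while S1pr2 and Fas differed by 0.74 and 0.22 and were not called. Of 15 attractants and survival factors, 10 were tested and 5 rose. Il6, Tnfsf11, Cxcr4, Ltb and Cxcl12 rose by 5.03, 4.76, 4.46, 3.57 and 2.49. Cxcl12, named after its values were seen, averaged 33.1 FPKM in CFA and 185.5 in CSA (limma adjusted p = 1.31e-06). Of the factors named for their action on B cells, Cxcl13, Tnfsf13b (BAFF) and Tnfsf13 (APRIL) were also named after their values were seen. These differed by 1.33, 1.13 and 0.21 and were not called (limma adjusted p = 0.118, 0.00188 and 0.811), Tnfsf13b for the fold limit. Against CSS, Cxcl13 alone of them was called, at 2.83 (limma adjusted p = 0.00356). Il21r, Il6, Tnfsf11 and Ltb passed the filter through CSA, so that their rise was largely built in. Of 10 immunoglobulin receptors and transport genes, 6 were tested and 4 rose (Fcgr4, Fcgr1, Fcer1g and Fcgr3, by 5.56, 5.24, 3.76 and 2.88), of which Fcgr4 passed through CSA.

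Markers of other cells moved with these lists. Of 14 macrophage genes, all were tested and 13 rose, with sums of 365 to 809 FPKM in CFA and 3376 to 3507 in CSA, led by Lyz2, Ctss and C1qb. Of 12 neutrophil genes 11 were tested and rose (S100a9, S100a8 and Retnlg the highest), and of 15 T cell genes 12 were tested and rose (Trbc2, Trac and Trbc1 the highest), their list summing to 2.62 to 6.57 FPKM in CFA and 59.9 to 78.3 in CSA. Of these, 1 macrophage, 7 neutrophil and 11 T cell genes passed the filter through CSA, where a rise was largely built in. Of 10 genes of plasmacytoid dendritic cells, 8 were tested and 4 rose (Bst2, Ly6a, Siglech and Lair1), but not Tcf4. Of the 8, 3 passed the filter through CSA, Siglech and Lair1 among them, so that their rise was largely built in. All 10 smooth muscle genes fell, with sums of 5699 to 8597 FPKM in CFA and 823 to 977 in CSA, Acta2, Myh11 and Cnn1 being the highest. Of 10 adipocyte genes 4 fell, Plin4 among them, and Cfd and Fabp4 were not called. All 5 erythroid genes tested fell against CFA, Hbb-bs, Hba-a1 and Hbb-bt the highest, but limma called 0 of the 5 against CSS, 0 of them at an unadjusted p under 0.05. Of 12 genes of lymph node stroma, 5 were tested and Pdpn rose, while Clu and Lyve1 were not called, and the defining genes Glycam1, Madcam1, Ccl19 and Ccl21a reached at most 0.670, 0.591, 0.114 and 0.113 FPKM in CSA. Madcam1 and Ccl21a were nonetheless above CFA in each CSA mouse, at 0.230 FPKM or more against 0.0657 or less, and at 0.0750 or more against 0.0542 or less. The part of these cells in the values of the 9 genes was not tested.

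**Figure D5:**
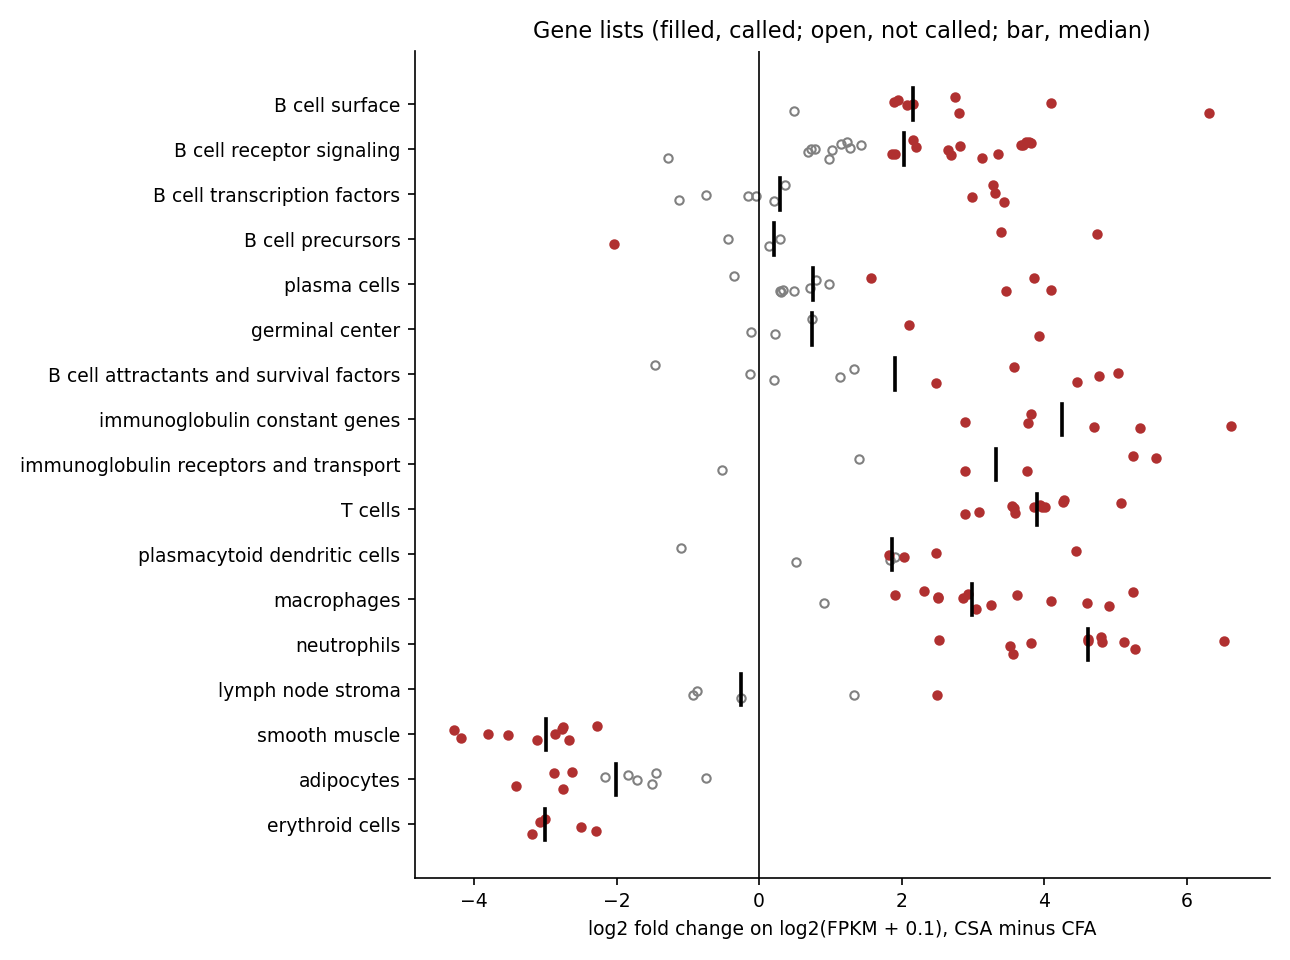
Log2 fold change between CSA and CFA (horizontal axis, on log2(FPKM + 0.1)) of each tested gene in 17 lists, filled where called by limma and open where not, with a bar at the median. The constant genes, with a median of 4.25 and all passing the filter through CSA, stand farthest right of the B cell lists, and the smooth muscle genes, with a median of -2.99, lie to the left.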

How the data were processed

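Poly(A) RNA of abdominal aorta was sequenced in pairs of 150 bases. The authors deposited FPKM per gene and mouse in 1 table, without pooling, and 0 columns were left unused. The submitters' processing notes name HISAT2 2.0.5, StringTie 1.3.3b, featureCounts 1.5.0-p3 and the build mm10, with no roles given. Columns were matched to mice by the labels, and symbols, positions and exon lengths came from GENCODE M21 (GRCm38, the same build). Whole fragments were recovered from FPKM and exon length within 0.05 of a fragment for values under 100 fragments. How fragments shared by similar immunoglobulin segments were assigned is not given in the sources used here.

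Log2(FPKM + 0.1) of the 14676 features with 1 FPKM or more in at least 3 libraries was fitted in R 4.3.3 with limma 3.58.1 (1 coefficient per group, eBayes with trend and robust settings), with Benjamini-Hochberg adjustment over all of them. A gene was called when its adjusted p was below 0.05 and its log2 difference exceeded 1.5 in size. The pseudocount understates changes of low genes. The fit was tested on simulated data beforehand. Python 3.11.15 served for all other steps, with numpy 2.4.6 and pandas 2.3.3, and matplotlib 3.10.9 drew the plots.

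The 9 genes and the 17 lists were chosen with earlier results of these data known. Named beside them are each constant gene, up to 4 genes of each B lineage list by size of difference with its defining genes, up to 3 of each other list by level, the 5 genes most like Ighm, Cd79a and Jchain, and the 5 highest V and J segments; a few genes that this rule names are not reported here. Alternatives were a pseudocount of 1, no filter, a mean FPKM of at least 1, scaling to equal sums, median-of-ratios scaling, plain eBayes, a fit of only the groups compared, and leaving out each mouse. P-values weigh a difference of group means against the spread between mice within groups, pooled over the groups fitted and moderated over all features.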

Additional observations from a re-analysis of the deposited data

Results flagged for a closer look

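Mzb1 had all 3 CSA mice above the 3 CFA mice, a log2 difference of 3.86, while its CSS mice (0.0595, 0 and 0.0508 FPKM) lay below its CFS mice (0.120, 0.354 and 0.0641). The saline values rest on 12 fragments in CFS and 3 in CSS, and limma did not call them (log2 difference -0.92, adjusted p = 0.915). The difference between the effects under Ang II and saline was not tested. With 3 mice per group no test for a sample far from the others was made.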

How the results depend on the processing

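The number of the 9 genes with CSA above CFA or CSS and no overlap was 7 under both scalings and 7 to 8 with 1 library left out, with 8 in both comparisons without CSA mouse 03 and against CSS without CSS mouse 54. The number with a log2 difference over 1.5 was 7 in each comparison and 4 in both with a pseudocount of 1, which shrinks differences of low genes by construction. That pseudocount lowered the difference between CSA and CFA to 1.32 for Cd22, 1.15 for Fcrla, 1.60 for Cd79b and 4.41 for Igkj5. Against CSS these were 1.39, 1.22, 1.49 and 3.79. With 1 library left out the number over 1.5 was 4 to 7 against CFA, the 4 being without CSA mouse 01, and 5 to 7 against CSS. Without any 1 CSA mouse, 7 of the 9 genes passed the filter. In CSS against CFS and in CFA against CFS, limma called 0 of these genes under each alternative run, but the fit of only the groups compared held 2 and 3 of them. Directions turned for genes that were not called, and the cause was not tested: with 1 library left out, differences in CSS against CFS ran from -0.93 to 0.31 for Jchain, from -0.41 to 0.82 for Ighd and from -0.45 to 0.90 for Fcrla, which was -0.0202 with a pseudocount of 1, and in CFA against CFS from -0.65 to 0.15 for Igkc and from -0.39 to 1.03 for Fcrla. The 49 genes of the B lineage lists that rose became 44 to 60 under the other alternatives and 34 to 50 with 1 library left out, and the 1 that fell became 1 to 2, with 2 without CSA mouse 02. Fkbp11 missed the fold limit with a pseudocount of 1 (1.26), leaving out CFA mouse 74 (1.32) or CSA mouse 02 (1.40). The median number of V segments above 0 in CSA, 131, was 52 at an FPKM of at least 1. No paired analysis was possible because the groups share no replicate numbers. Scaling to equal sums shifted the median of all features by 0.08. Depth limits the low members, with 12 to 21 fragments of Igkj5 in each CSA mouse, 18 to 30 of Fcrla and 23 to 75 of Cd22 summed over each other group.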
